A study of Mus musculus with 20 samples.

Results

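Nrl and Nr2e3, the 2 transcription factor genes that set the rod fate in the mouse retina, were followed through 20 whole-retina RNA samples of 5 genotypes at postnatal days 2 (P2) and 21 (P21). They were chosen by name as the rows with these symbols, and both were present at both ages, as 2 of the 566 genes listed at P2 and of the 1497 listed at P21, or 2 of 1865 genes in all. The mice were on the C57BL/6J strain and were Nrl-/- (no Nrl function), CrxRip/Rip and CrxRip/+ (both copies or a single copy of Rip, a dominant mutant allele of the photoreceptor gene Crx), Crx-/- (no Crx function) or wild type. Every group had 2 samples, each made from 2 frozen retinas. The labels do not say which animals these came from, so p-values measure only the spread between these samples. Because whole retina was used, fewer rods and less RNA per rod cannot be told apart.

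Nrl encodes a basic leucine zipper protein of the Maf family that is made in newborn rods and is required for a photoreceptor precursor to become a rod. It turns on Nr2e3, an orphan nuclear receptor that holds cone genes down in rods and, together with NRL and CRX, activates rod genes. OTX2, CRX and RORB act upstream of or beside NRL. Mice without Nrl or without Nr2e3 function are known for extra short-wave cones or cone gene expression in place of normal rods.

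Each gene stands for 1 RefSeq transcript. Nrl (NM_008736) lies on the minus strand of chromosome 14 and its GENCODE M21 counterpart has 3 exons and 2422 bases. Nr2e3 (NM_013708) lies on the minus strand of chromosome 9, with 8 exons and 2037 bases, and no other annotated gene overlaps the exons of either. The RefSeq promoters of both, from 250 bases before to 50 after the start site (GRCm38.p6), are shown because the 2 genes fell together in the mutants below. Capitals mark the letters of any of 4 motifs found on either strand. The first 3 were TAATCC, a core bound by CRX and OTX2, TGCTGAC, part of the site of Maf factors such as NRL, and AGGTCA, part of the site of ROR and other nuclear receptors. TAATC, the shorter homeodomain core contained in TAATCC, was added to these.
Nrl, chr14:55524203-55524502, minus strand: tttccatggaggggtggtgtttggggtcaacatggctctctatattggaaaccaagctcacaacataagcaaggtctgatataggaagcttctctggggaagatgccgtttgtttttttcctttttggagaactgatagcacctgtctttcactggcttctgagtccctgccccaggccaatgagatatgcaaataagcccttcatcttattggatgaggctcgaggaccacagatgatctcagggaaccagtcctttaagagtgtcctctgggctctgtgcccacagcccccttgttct
Nr2e3, chr9:59950030-59950329, minus strand: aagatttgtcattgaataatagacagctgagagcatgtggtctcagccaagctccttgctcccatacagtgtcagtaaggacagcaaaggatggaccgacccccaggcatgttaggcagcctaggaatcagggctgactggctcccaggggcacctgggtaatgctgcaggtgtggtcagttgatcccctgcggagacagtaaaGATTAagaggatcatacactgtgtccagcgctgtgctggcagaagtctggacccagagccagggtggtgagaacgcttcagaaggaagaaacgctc
The single match was GATTA in the Nr2e3 promoter, which is TAATC on the other strand, and this core was present in 22.0% of 32851 mouse promoters. TAATCC was present in 7.1% of them, TGCTGAC in 4.7% and AGGTCA in 16.3%, and none of the 3 in either promoter shown. A missing match says only that these letters are not in this window.

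Values are FPKM, fragments scaled to transcript length and to library size, so they can be compared between the 2 genes. They were rounded to 1 decimal, and the depth of the libraries is unknown. Differences are on the scale of log2(FPKM + 1), which understates the change of low values, with 95% intervals. Calls were made at a limma p under 0.05 after Benjamini-Hochberg adjustment across all genes of that age. The deposited tables list only genes that met the authors' threshold somewhere among the comparisons, so the share of all genes called is high, and counts are to be read against it. The summed FPKM of the table ran from 4168 to 5777 over the P2 samples and from 21569 to 55335 over the P21 samples, where both wild-type samples were highest.

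Nrl is the gene deleted in Nrl-/- and was read there first. In the Nrl-/- retina it was at 0.1 and 0.1 FPKM at P2, against 69.4 and 81.0 FPKM in wild type. At P21 it was at 0.2 and 0.2 FPKM in Nrl-/- and 466.1 and 427.6 FPKM in wild type. The targeted transcript was thus near the rounding limit in all 4 samples that carry the deletion.

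At P2, when rods are still being born, both rod factors were among the most abundant transcripts of the table. In wild type Nr2e3 ranked 4 and Nrl 11 of 566 by mean FPKM. Almost no Nr2e3 was present in Nrl-/-, both genes were lower in CrxRip/Rip, at about the same fraction of wild type, and neither gene was called with a single copy of CrxRip or without Crx.

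**Figure D1:**
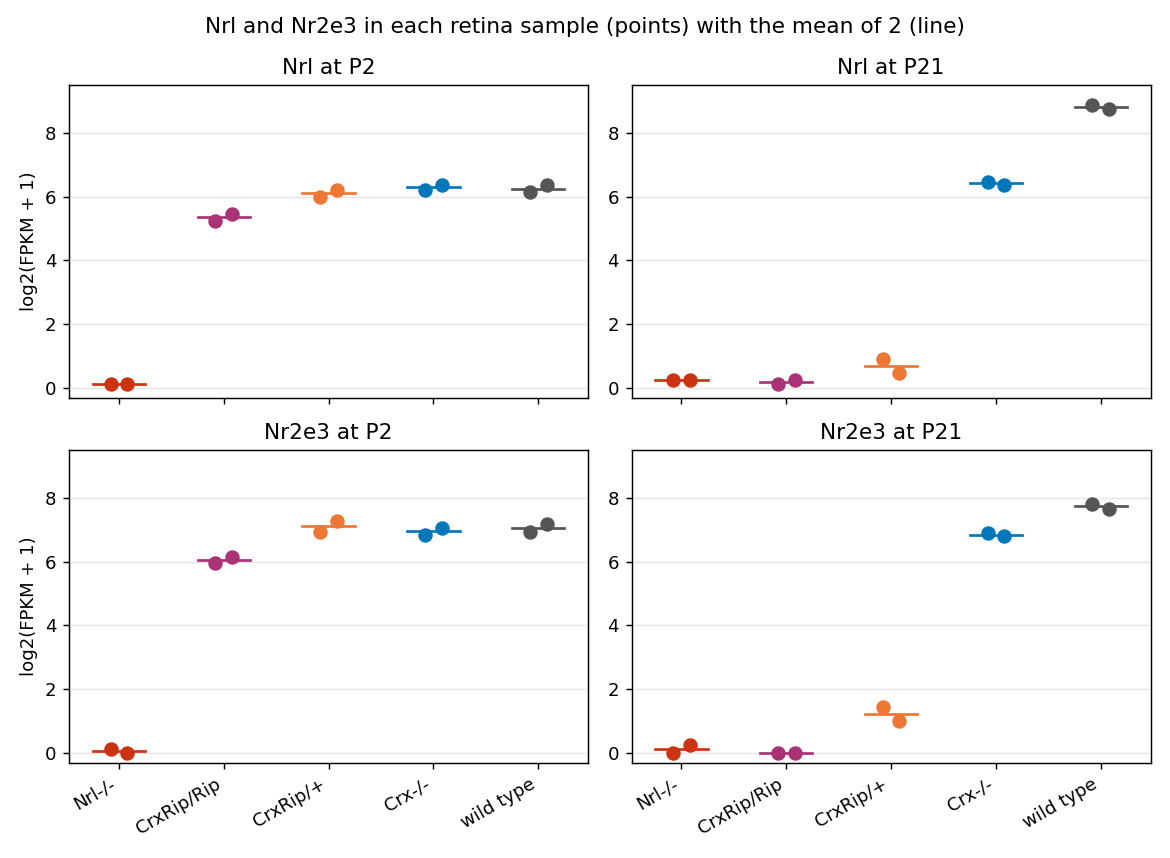
Level of Nrl (top) and Nr2e3 (bottom) as log2(FPKM + 1) in each sample at P2 (left) and P21 (right). Points are samples and lines are means of 2. At P2 both samples of Nrl-/- and of CrxRip/Rip lie below wild type, and CrxRip/+ and Crx-/- overlap it. At P21 all mutants lie below wild type, with Crx-/- well above the other 3.

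Nr2e3 was at 0.1 and 0.0 FPKM in Nrl-/- at P2, against 120.3 and 143.8 FPKM in wild type. It fell by 6.98 (95% interval -7.36 to -6.60, limma adjusted p = 3.38e-08), and no other gene of the P2 table fell as far. Nrl itself fell by 6.11 (-6.43 to -5.79). Both were called lower, as were 64.7% of all genes in this comparison, while 18.9% were called higher. The median change of all genes was -0.76. When libraries were rescaled by the median of ratios, which shifted that median by 0.72 and gave 96 genes lower and 188 higher in place of 366 and 107, the differences were -5.73 for Nrl and -6.65 for Nr2e3.

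In CrxRip/Rip at P2, Nrl was at 36.5 and 43.2 FPKM against 69.4 and 81.0 FPKM in wild type, a difference of -0.90 (-1.22 to -0.58, limma adjusted p = 0.00108). Nr2e3 was at 61.4 and 70.2 FPKM in CrxRip/Rip against 120.3 and 143.8 FPKM in wild type, a difference of -0.99 (-1.37 to -0.61, limma adjusted p = 0.00184). The groups did not overlap for either gene. In CrxRip/Rip, CrxRip/+, Crx-/- and wild type alike, replicate 2 had more of both transcripts than replicate 1 at P2, and a fit with the replicate number as a block kept every call of the 2 genes. The means were 53.0% of wild type for Nrl and 49.8% for Nr2e3. Both were called lower, against a background of 21.2% of genes lower and 5.83% higher.

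In CrxRip/+ at P2 neither gene was called. Nrl was at 63.0 and 73.1 FPKM in CrxRip/+ and overlapped the 69.4 and 81.0 FPKM of wild type, with a difference of -0.14 (-0.46 to 0.17, limma adjusted p = 0.621). Nr2e3 was at 121.1 and 153.3 FPKM in CrxRip/+ against 120.3 and 143.8 FPKM in wild type, a difference of 0.05 (-0.33 to 0.43, limma adjusted p = 0.903). Of all genes, 12.7% were called lower and 3.71% higher. The intervals leave room for a fall of Nrl of up to 0.46.

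Crx-/- at P2 gave a like result. Nrl was at 73.0 and 81.6 FPKM in Crx-/-, with a difference from wild type of 0.04 (-0.27 to 0.36, limma adjusted p = 0.823). Nr2e3 was at 112.4 and 133.2 FPKM, with a difference of -0.10 (-0.48 to 0.28, limma adjusted p = 0.625). The samples of Crx-/- and wild type overlapped for both genes. Of all genes, 20.7% were called lower and 9.19% higher in Crx-/-, or 57 genes lower and 86 higher once libraries were rescaled by the median of ratios, in place of 117 and 52. That rescaling turned the uncalled Nr2e3 difference to 0.09.

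The direct comparisons among the Crx mutants at P2 set CrxRip/Rip apart. Against CrxRip/+, Nrl differed by -0.76 (limma adjusted p = 0.0075) and Nr2e3 by -1.04 (limma adjusted p = 0.0038), where 11.3% of all genes were lower. The Nrl call was lost without CrxRip/+ replicate 2, which gave -0.65 (limma adjusted p = 0.0557). With only these 2 genotypes fitted the adjusted p was 0.0805 for Nrl and 0.0659 for Nr2e3, and with 0.1 in place of the added 1 it was 0.0501 for Nr2e3. Against Crx-/-, CrxRip/Rip was lower by -0.94 in Nrl and by -0.89 in Nr2e3 (limma adjusted p = 0.00104 and 0.00378), with 23.1% of all genes lower. Between CrxRip/+ and Crx-/- neither gene was called (-0.18, interval -0.50 to 0.13, for Nrl and 0.15, interval -0.23 to 0.54, for Nr2e3), while 28.6% of genes were called in either direction. The genes higher and lower in CrxRip/+ numbered 91 and 71 here, or 41 and 84 with rescaled libraries.

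Set against Nrl-/-, all 3 Crx genotypes had far more of both transcripts at P2. In CrxRip/Rip, the lowest of them, Nrl was higher than in Nrl-/- by 5.21 and Nr2e3 by 5.99. CrxRip/+ was higher by 5.97 in Nrl and 7.03 in Nr2e3, and Crx-/- by 6.15 and 6.88, all with limma adjusted p of at most 7.58e-08. The background of genes called higher was 61% for CrxRip/Rip, 61.7% for CrxRip/+ and 59.9% for Crx-/-. Rescaled libraries gave more genes lower than higher in all 3, at 199 against 155, 191 against 117 and 185 against 76, in place of 160 against 345, 136 against 349 and 107 against 339. The order at P2 therefore ran from a shared top of Crx-/-, wild type and CrxRip/+, whose neighbours did not differ beyond their spread, through CrxRip/Rip to Nrl-/-.

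**Figure D2:**
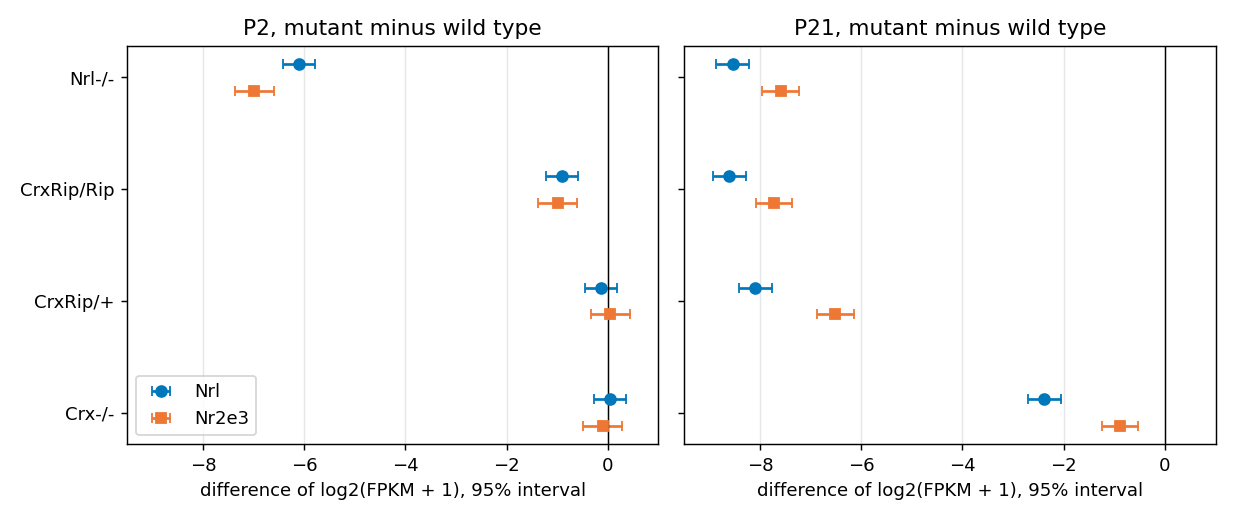
Difference of each mutant from wild type in log2(FPKM + 1) for Nrl (circles) and Nr2e3 (squares) at P2 and P21, with 95% intervals from limma. At P2 the intervals of CrxRip/+ and Crx-/- include 0, and at P21 none does.

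At P21, when the photoreceptor layer is formed, the CrxRip mutants had nearly lost both transcripts and Crx-/- had kept a part. CrxRip/+, with a single mutant allele, retained 0.145% of the wild-type mean of Nrl and 0.639% of that of Nr2e3, while Crx-/- retained 18.9% and 54.0%. In wild type Nrl ranked 16 and Nr2e3 38 of 1497 genes by mean FPKM.

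Nrl was at 0.9 and 0.4 FPKM in CrxRip/+ at P21, against 466.1 and 427.6 FPKM in wild type. It fell by 8.10 (-8.43 to -7.77, limma adjusted p = 4.17e-09). Nr2e3 was at 1.7 and 1.0 FPKM in CrxRip/+ against 223.7 and 198.8 FPKM in wild type, and fell by 6.51 (-6.87 to -6.15, limma adjusted p = 1.65e-08). Both were called lower beside 35% of all genes lower and 39.5% higher.

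In CrxRip/Rip at P21 Nrl was at 0.1 and 0.2 FPKM and Nr2e3 was listed at 0 in both samples. Both were lower than in wild type, Nrl with a difference of -8.61 (-8.93 to -8.28) and Nr2e3 with a difference of -7.73 (-8.08 to -7.37), with limma adjusted p = 1.92e-09 and 4.18e-09. Of all genes, 44.3% were called lower and 36.3% higher.

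In Nrl-/- at P21 Nr2e3 was at 0.0 and 0.2 FPKM against 223.7 and 198.8 FPKM in wild type. The difference was -7.60 for Nr2e3 (-7.95 to -7.24, limma adjusted p = 1.02e-08) and -8.54 for Nrl (-8.87 to -8.22, limma adjusted p = 4.08e-09), with 31.8% of genes lower and 40.4% higher.

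Crx-/- at P21 stood between these mutants and wild type. Nrl was at 87.2 and 82.0 FPKM in Crx-/- against 466.1 and 427.6 FPKM in wild type, a difference of -2.39 (-2.71 to -2.06, limma adjusted p = 1.58e-06). Nr2e3 was at 118.0 and 110.0 FPKM in Crx-/- against 223.7 and 198.8 FPKM in wild type, a difference of -0.88 (-1.24 to -0.53, limma adjusted p = 8.06e-04). Both were called lower and did not overlap wild type, with 41.5% of all genes lower and 39.8% higher. The Nr2e3 call was lost with 0.1 in place of the added 1, at -0.89 and limma adjusted p = 0.0971.

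Directly compared at P21, CrxRip/+ was lower than Crx-/- by -5.71 in Nrl (limma adjusted p = 6.86e-08) and by -5.63 in Nr2e3 (limma adjusted p = 9.58e-08), beside 22.7% of genes lower and 29.9% higher. CrxRip/Rip was lower than Crx-/- by -6.22 in Nrl and -6.84 in Nr2e3 (limma adjusted p = 2.6e-08 for both), beside 33.9% lower (508 genes, with 291 higher, or 391 and 406 with rescaled libraries). Crx-/- was higher than Nrl-/- by 6.16 in Nrl and 6.71 in Nr2e3 (limma adjusted p = 1.94e-08 for both), where 25.7% of genes were higher and 39.4% lower. No other gene rose as far as Nr2e3 in that last comparison.

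Among the 3 genotypes near 0 at P21, CrxRip/+ kept a trace of Nr2e3. At 1.7 and 1.0 FPKM it lay above both Nrl-/- samples (0.0 and 0.2), by 1.08 (0.73 to 1.44, limma adjusted p = 7.50e-04), where 21% of genes were called higher and 27.7% lower. CrxRip/Rip was lower than CrxRip/+ in Nr2e3 by -1.22 (-1.57 to -0.86, limma adjusted p = 5.21e-04), with 35.9% of genes lower. The call counts of this comparison shifted to 304 genes higher and 269 lower with rescaled libraries, in place of 165 and 538. For Nrl the differences were smaller, at 0.44 for CrxRip/+ against Nrl-/- (limma adjusted p = 0.0319) and -0.51 for CrxRip/Rip against CrxRip/+ (limma adjusted p = 0.0203), between values that are all under 1 FPKM. The first of these calls was lost without either Nrl-/-, either Crx-/- or either wild-type sample or CrxRip/+ replicate 1 (0.22 to 0.44, adjusted p 0.0538 to 0.138). The second was lost without CrxRip/Rip replicate 1 or CrxRip/+ replicate 1 (-0.44 and -0.29, adjusted p 0.0787 and 0.0753). Between CrxRip/Rip and Nrl-/- neither gene was called, at -0.06 (-0.39 to 0.26) for Nrl and -0.13 (-0.49 to 0.23) for Nr2e3, while 21.2% of genes were higher and 45.6% lower, or 489 and 478 genes with rescaled libraries in place of 317 and 683. With 0.1 as the added value the Nr2e3 difference of CrxRip/+ from Nrl-/- was 3.02 and that of CrxRip/Rip from CrxRip/+ was -3.81, and those of Nrl were 1.24 and -1.53.

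The 2 ages were scaled as separate tables and were not tested against each other, so levels are only set side by side. In CrxRip/+, where neither gene was called at P2, means of 68.0 ± 7.14 FPKM for Nrl and 137.2 ± 22.8 FPKM for Nr2e3 at P2 stood beside 0.65 ± 0.354 and 1.35 ± 0.495 FPKM at P21 (SD, n = 2 for each mean). In Crx-/- the Nrl mean was 77.3 ± 6.08 at P2 and 84.6 ± 3.68 at P21, and the Nr2e3 mean was 122.8 ± 14.7 and 114 ± 5.66 FPKM. Wild-type means of Nrl were 75.2 ± 8.20 at P2 and 446.9 ± 27.2 at P21, and those of Nr2e3 132.1 ± 16.6 and 211.2 ± 17.6 FPKM. Whether the effect of a genotype differs between the ages was not tested.

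The balance of the 2 factors also differed between samples. The ratio of Nr2e3 to Nrl within a sample does not depend on the scaling of the library, and it is given as a description with no test. At P2 it was 1.68 and 1.62 in CrxRip/Rip, 1.92 and 2.10 in CrxRip/+, 1.54 and 1.63 in Crx-/- and 1.73 and 1.78 in wild type. At P21 it was 1.35 and 1.34 in Crx-/- and 0.480 and 0.465 in wild type. Nr2e3 thus had the higher FPKM in every P2 sample outside Nrl-/- and in Crx-/- at P21, and Nrl had it in wild type at P21. In the other P21 mutants Nrl was under 1 FPKM and no ratio was formed.

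**Figure D3:**
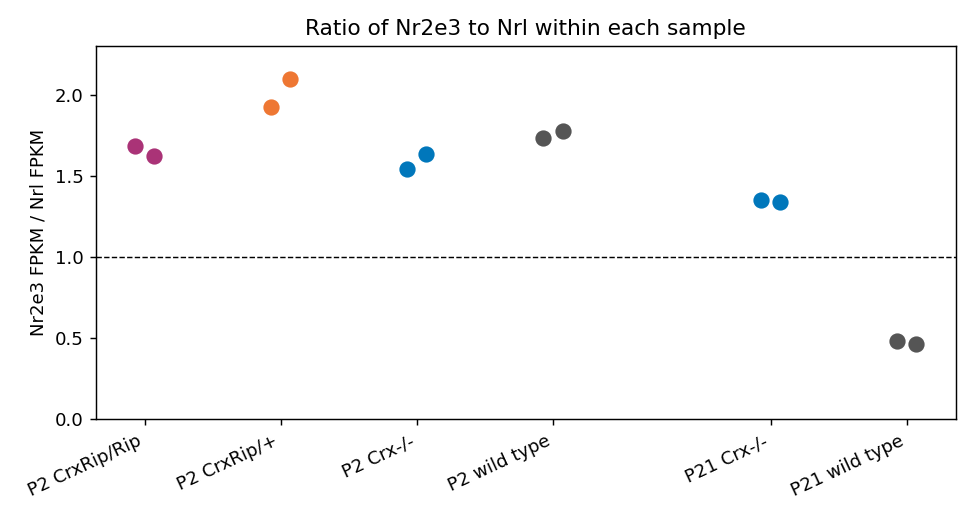
Ratio of Nr2e3 to Nrl FPKM in each sample with Nrl above 1 FPKM. Points are samples, and the dashed line marks equal FPKM. The wild-type samples at P21, at 0.480 and 0.465, are the ones below it.

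Rod genes, the known targets of both factors, were read in the same samples from a list of 16 genes, of which 8 were listed at P2 and 16 at P21. At P2, 7 of 8 were lower in Nrl-/-, 8 of 8 in CrxRip/Rip, 6 of 8 in CrxRip/+ and 5 of 8 in Crx-/-, and none was higher. With rescaled libraries 7 were lower and 1 higher in Nrl-/-. The median changes in the 4 mutants, in the same order, were -2.73, -2.50, -0.83 and -0.72, beside -0.76, -0.06, -0.02 and -0.14 over all genes, of which 64.7%, 21.2%, 12.7% and 20.7% were called lower. Cnga1, a subunit of the rod channel, was at 0.1 FPKM on average in CrxRip/+ against 4.65 in wild type (-2.30), although neither Nrl nor Nr2e3 was called there.

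At P21 all 16 rod genes were lower than in wild type in each mutant. The median changes were -4.06 in Nrl-/-, -4.82 in CrxRip/Rip, -4.21 in CrxRip/+ and -3.45 in Crx-/-, beside 0.17, -0.14, 0.13 and -0.04 over all genes, of which 31.8%, 44.3%, 35% and 41.5% were called lower. Gnat1, the rod transducin alpha subunit, averaged 0.3, 0.3 and 2.85 FPKM in Nrl-/-, CrxRip/Rip and CrxRip/+, 9.2 in Crx-/- and 4363 in wild type. In CrxRip/+ against Crx-/-, 10 of 16 rod genes were lower and 5 higher, beside 22.7% of all genes lower and 29.9% higher, so the share of rod genes higher was near that of all genes. Cnga1 was lower there by -5.72 (0.1 against 56.95 FPKM) and Pde6b, a subunit of the rod phosphodiesterase, by -2.53 (30.1 against 176.4 FPKM).

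Cone genes, which NR2E3 is known to repress, did not move alike in the mutants that lacked both factors at P21. All 14 of the 15 listed cone genes in the table rose in Nrl-/-, with a median change of 3.33. In CrxRip/Rip 6 were higher and 7 lower (median -0.39), in CrxRip/+ 6 higher and 4 lower (0.37), and in Crx-/- 7 higher and 4 lower (0.53). Of all genes, 40.4% were higher in Nrl-/-, 36.3% higher and 44.3% lower in CrxRip/Rip, 39.5% and 35% in CrxRip/+ and 39.8% and 41.5% in Crx-/-. The cone counts of both CrxRip genotypes were thus near the shares of all genes. Opn1sw, the short-wave opsin gene, averaged 2399.8 FPKM in Nrl-/-, 0.2 in CrxRip/Rip, 1.05 in CrxRip/+ and 2.7 in Crx-/-, against 152.8 in wild type. Gngt2, the cone transducin gamma subunit, rose by 3.67 in Nrl-/-, 1.88 in CrxRip/Rip, 3.16 in CrxRip/+ and 2.46 in Crx-/-.

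Tested directly, 14 of 14 cone genes were lower in CrxRip/Rip than in Nrl-/- and 13 of 14 were lower in CrxRip/+ than in Nrl-/-, with none higher. The medians were -3.60 and -2.66, beside -0.28 and -0.04 over all genes, of which 45.6% and 27.7% were lower. The gene not called in CrxRip/+ was Rxrg, a nuclear receptor of cones, at 16.9 against 18.7 FPKM. Rod genes in the same comparison of CrxRip/+ with Nrl-/- were 3 higher, 4 lower and 9 not called, near the 21% higher and 27.7% lower of all genes. In Crx-/- against Nrl-/-, 13 of 14 cone genes were lower and Rxrg was higher, beside 39.4% of all genes lower and 25.7% higher.

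**Figure D4:**
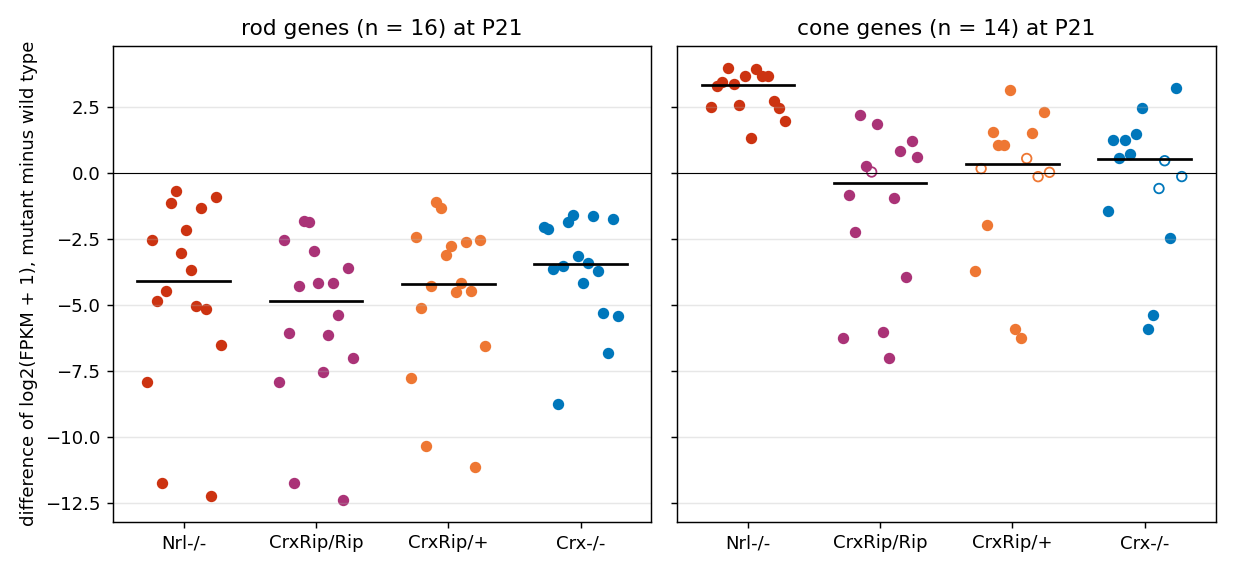
Difference from wild type in log2(FPKM + 1) at P21 for the listed rod genes (left, n = 16) and cone genes (right, n = 14). Filled points were called, open points were not, and the black line is the median, -4.06 in Nrl-/- for rod genes and 3.33 for cone genes. Every rod gene lies below 0 in each mutant, and every cone gene lies above 0 in Nrl-/- only.

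At P2 the cone list had 13 members in the table. In Nrl-/- 7 were higher and 2 lower, or 13 higher and none lower with rescaled libraries. In CrxRip/Rip 13 were lower and in CrxRip/+ 11, with none higher, while in Crx-/- 5 were lower and 1 higher. The median changes in Nrl-/-, CrxRip/Rip, CrxRip/+ and Crx-/- were 0.33, -1.88, -1.15 and 0, beside -0.76, -0.06, -0.02 and -0.14 over all genes. Of all genes 18.9% were higher in Nrl-/-, and 21.2%, 12.7% and 20.7% were lower in CrxRip/Rip, CrxRip/+ and Crx-/-. Opn1sw fell by 4.74 in CrxRip/+, where Nrl and Nr2e3 were not called.

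Of 17 listed upstream factors of NRL, partners and other photoreceptor regulators, 9 were in the P21 table and 2, Samd7 and Ankrd33, at P2. Of the 9, 4 were higher and 2 lower in Nrl-/-, 3 higher and 4 lower in CrxRip/Rip, 3 and 3 in CrxRip/+ and 4 and 3 in Crx-/-. The shares of all genes higher and lower were 40.4% and 31.8% in Nrl-/-, 36.3% and 44.3% in CrxRip/Rip, 39.5% and 35% in CrxRip/+ and 39.8% and 41.5% in Crx-/-, so these counts are no result about the list, and single genes are given for their values. Otx2, the homeobox gene that starts photoreceptor fate, was higher than in wild type in every mutant. Its mRNA was at 276.2 ± 18.0 FPKM in CrxRip/Rip (a difference of 1.76), 199.2 ± 17.5 in Crx-/- (1.29), 153.0 ± 0.424 in CrxRip/+ (0.92) and 116.8 ± 13.5 in Nrl-/- (0.53), against 80.6 ± 0.636 in wild type (SD, n = 2 each, largest limma adjusted p = 0.00224). All 8 mutant samples lay above both wild-type samples, and the RNA says nothing of the protein.

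Crx itself was at 320.9 ± 29.6 FPKM in Nrl-/- (-0.12, not called), 293.0 ± 25.3 in CrxRip/+ (a difference of -0.25, limma adjusted p = 0.104), 196.4 ± 31.6 in CrxRip/Rip (-0.83) and 169.7 ± 2.47 in Crx-/- (-1.03), against 347.3 ± 4.81 in wild type. A value over the whole transcript does not show whether a working protein was made. Rorb, a nuclear receptor required for Nrl expression, was lower in Nrl-/- (-1.16), CrxRip/Rip (-0.77) and CrxRip/+ (-1.16). The Crx-/- mean of 23.9 ± 1.56 FPKM did not pass the test against the wild-type mean of 29.9 ± 6.22 (limma adjusted p = 0.0804). Prdm1, which keeps precursors from the bipolar fate, rose in all 4 mutants, by 1.75 in Nrl-/-, 1.44 in CrxRip/Rip, 1.06 in CrxRip/+ and 1.67 in Crx-/-. Samd7, a repressor of non-rod genes in photoreceptors, differed by -1.08 in Nrl-/-, -5.38 in CrxRip/Rip, -3.94 in CrxRip/+ and 1.69 in Crx-/-, all called. At P2 Samd7 was lower in Nrl-/- (-3.66), CrxRip/Rip (-4.42) and CrxRip/+ (-2.28), and was not called in Crx-/- (0.50). Nrl was not called in CrxRip/+ at that age. Ankrd33, the other listed gene at P2, was lower there in Nrl-/- (-0.27), CrxRip/Rip (-0.62), CrxRip/+ (-0.42) and Crx-/- (-1.27). At P21 it differed by -4.44 in Crx-/- (2.5 against 74.7 FPKM in wild type) and by 0.42 in Nrl-/-, both called. It was not called at P21 in CrxRip/Rip (-0.27) or CrxRip/+ (0.36). Otx2, Crx, Rorb and Prdm1 were chosen for their known roles after their values had been seen.

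**Figure D5:**
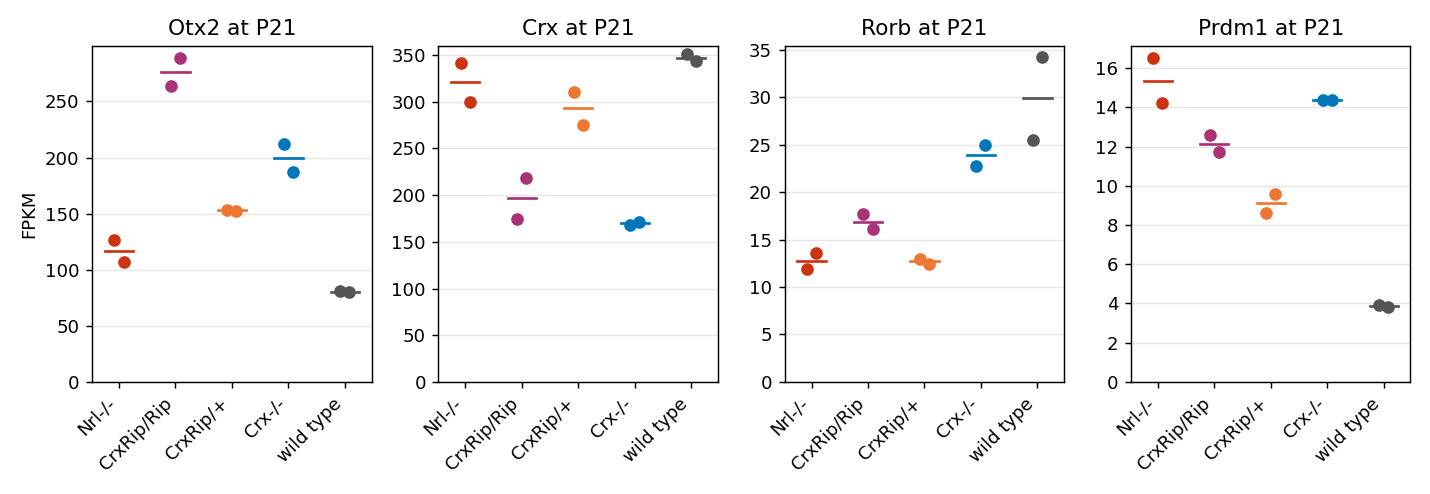
FPKM of Otx2, Crx, Rorb and Prdm1 at P21 in each sample (points) with the mean of 2 (line). Otx2 and Prdm1 lie above wild type in every mutant sample, with Otx2 at 276.2 FPKM in CrxRip/Rip against 80.6 in wild type.

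Summed markers of some other cells also differed between mutant and wild-type samples at P21. Lists of Muller glia, microglia, progenitors and other neurons had only 1 or 2 genes listed at P21 and are not described. The 5 pigment epithelium genes in the table summed to 33.8 to 72.6 FPKM over the mutant samples against 8.3 and 19.4 in wild type, and 6 gliosis and stress genes to 29.8 to 73.9 against 17.3 and 17.6. Of the first list 4 were called higher in Nrl-/-, CrxRip/Rip and CrxRip/+ and 5 in Crx-/-. Of the second, 2 were called higher in Nrl-/- and in CrxRip/Rip, and 5 in CrxRip/+ and in Crx-/-. The shares of all genes called higher were 40.4% in Nrl-/-, 36.3% in CrxRip/Rip, 39.5% in CrxRip/+ and 39.8% in Crx-/-. The 2 of 6 gliosis and stress genes called higher in Nrl-/- and in CrxRip/Rip were thus near these shares. No marker of either list averaged 0 in any genotype. The 5 bipolar cell genes in the table summed to 65.7 and 78.8 FPKM in CrxRip/Rip and 255.6 and 244.7 in Nrl-/-. Their sums were 124.5 and 113.7 in CrxRip/+, 130.6 and 126 in Crx-/- and 114.8 and 135 in wild type. Of these 5 genes, 2 were called higher and 1 lower in Nrl-/-, and 1 higher and 4 lower in CrxRip/Rip. In CrxRip/+ 1 was higher and 1 lower, and in Crx-/- 2 and 2. Median changes in Nrl-/-, CrxRip/Rip, CrxRip/+ and Crx-/- were -0.05, -0.90, -0.26 and -0.24, beside 0.17, -0.14, 0.13 and -0.04 over all genes. The larger sum in Nrl-/- thus did not come from all 5 genes. The part of these markers in the falls of Nrl and Nr2e3 was not tested. Genes that both rods and cones make were mostly lower as well. Of 19 in the table, 13 were lower and 3 higher in Nrl-/-, 19 lower in CrxRip/Rip, 15 in CrxRip/+ and 16 in Crx-/-, with none higher in these 3. The shares of all genes called lower were 31.8% in Nrl-/-, 44.3% in CrxRip/Rip, 35% in CrxRip/+ and 41.5% in Crx-/-. The medians were -0.97 in Nrl-/-, -3.04 in CrxRip/Rip, -2.16 in CrxRip/+ and -1.72 in Crx-/-, beside 0.17, -0.14, 0.13 and -0.04 over all genes.

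The genes whose log2(FPKM + 1) followed the 2 factors most closely are given as a description, since samples of 1 genotype share their deviation. Over the 8 P21 samples outside Nrl-/-, Cnga1 had the highest Pearson correlation with Nrl of 1118 genes (r = 0.999), followed by Pdc, the transducin-binding phosducin (0.995), Glb1l2 (0.994), Rims2 (0.987) and Nr2e3 (0.987). Cnga1 averaged 0 FPKM in CrxRip/Rip, 0.1 in CrxRip/+, 56.95 in Crx-/- and 236.4 in wild type. For Nr2e3 the closest were Eepd1 (0.994), Slc26a2 (0.991), Nrl (0.987), Cnga1 (0.987) and Mpdz (0.985). These values fall into clusters, with both CrxRip genotypes near 0, so r mostly places a gene by its levels in Crx-/- and wild type.

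Over the 8 P2 samples outside Nrl-/-, of 319 genes the closest to Nrl were Gngt2 (r = 0.994), the disc protein gene Rom1 (0.984), Pde6b (0.982), Pdc (0.981) and 1810009A15Rik (0.978), with Nr2e3 at rank 12 (0.956). Nr2e3 was followed most closely by 1810009A15Rik (0.979), Pitpnm3 (0.974), Nrl (0.956), the rod arrestin gene Sag (0.948) and the disc rim gene Prph2 (0.945). Gngt2, a cone gene, did not follow Nrl in Nrl-/-, where it averaged 215.55 FPKM against 180.55 in wild type (not called). With rescaled libraries it was called higher there, as were all 13 cone genes listed at P2. Both factors were higher in replicate 2 of every genotype outside Nrl-/-, and the part of this in r was not tested. With the Nrl-/- samples included, the 2 factors were each other's nearest gene at P2 (r = 0.999 over 10 samples). Both were at 0.1 FPKM or less in the Nrl-/- samples, so this r mostly reflects the gap between those samples and the others. At P21 over 10 samples Nrl was nearest to Nr2e3 (0.989), while Cnga1 (0.999) and Glb1l2 (0.995) came before Nr2e3 (0.989) for Nrl.

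In the authors' deposited table the adjusted p of the 2 genes fell on the same side of 0.05 as here in 40 of 40 comparisons. In the authors' deposited table Nrl in CrxRip/+ against wild type was at -0.16 (adjusted p = 0.839) at P2 and -9.75 at P21, and Nr2e3 at 0.05 (adjusted p = 1) and -7.48. For Crx-/- at P21 the authors' deposited table gives -2.63 for Nrl and -1.11 for Nr2e3 (adjusted p = 1.26e-177 and 1.14e-44). Between CrxRip/Rip and Nrl-/- at P21 it gives 0.06 for Nrl (adjusted p = 1) and -2.98 for Nr2e3 (adjusted p = 0.104), in the authors' deposited table.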

How the data were processed

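Total RNA of whole retina was made into directional libraries, per the labels' protocols. The authors deposited 1 table per age with FPKM values for each sample, together with log2 fold changes and p-values of their own comparisons, per the file headers. DESeq is named in the submitters' processing notes, with no version, and no source used here gives the aligner, genome build or annotation. All 566 and 1497 listed genes passed, in some comparison, an authors' adjusted p of 0.05 and an absolute log2 fold change of 1 (tested on the files). Read counts were not used and depth is unknown.

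Each table was fitted on its own as log2(FPKM + 1) with limma 3.58.1 (R 4.3.3), with empirical Bayes and a mean-variance trend, 1 term per genotype over all 10 samples and 10 pairs of genotypes, two-sided, and the script was tested on simulated data. An exact permutation test of 2 samples against 2 cannot go below p = 0.33. Over all genes, deviations of samples with the same replicate number correlated between -0.24 and 0.33 at P2 and between -0.30 and 0.24 at P21, so the numbers were not used as pairs, although at P2 both members were higher in replicate 2 of the 4 genotypes that express them. No replicates were duplicates: at most 12.2% and 9.15% of their values were identical. Promoters were from RefSeq (GRCm38.p6).

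The members, the lists and the motifs were chosen with earlier results of these data known. Named genes from the lists were called members with the largest change in at least 1 comparison with wild type. Not every such member was described, for example Cngb3, a cone gene that rose by 4.00 in Nrl-/- at P21. Also named were the 5 genes most correlated with each factor among those with a genotype mean of at least 5 FPKM. A few were chosen after their values were seen (Otx2, Crx, Rorb, Prdm1, Gngt2, Pde6b and Rxrg). Alternatives were an added value of 0.1, genes with a mean of at least 1 FPKM, median-of-ratios rescaling, only the 2 genotypes compared, no trend, a replicate block and leaving out each sample. Values of 1 rod gene are not reported here.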

Additional observations from a re-analysis of the deposited data

How the results depend on the processing

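Of 640 alternative values for the 40 comparisons of Nrl and Nr2e3, 624 stayed called or stayed not called. Another 16 lost the call in 5 comparisons, and 0 called differences changed sign. The cause was not tested. Many of these fits left out a sample of a genotype outside the comparison. Such fits keep the difference as it was and change only the estimate of the spread and the adjusted p, so they are a weak check. Differences that were not called could change sign, as for Nr2e3 in P2 Crx-/- against wild type (-0.23 to 0.09 over the fits). With 0.1 added, Nr2e3 was at -1.05 for P2 CrxRip/Rip against CrxRip/+ and -0.89 for P21 Crx-/- against wild type, neither called. With only the 2 genotypes compared, the calls of P2 CrxRip/Rip against CrxRip/+ (Nrl -0.76, Nr2e3 -1.04), P21 CrxRip/Rip against CrxRip/+ (Nrl -0.51) and P21 CrxRip/+ against Nrl-/- (Nrl 0.44) were lost. Leaving out 1 sample, Nrl ranged from -0.88 to -0.64, from -0.73 to -0.29 and from 0.22 to 0.66 in these 3 comparisons. The replicate block left the calls of 40 of 40 gene comparisons as they were. With it, 20 of 20 counts and 32 of 32 list counts stayed within a set margin of the main counts. This does not mean that these counts were unchanged.

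Counts of all genes called moved further. Rescaling gave 284 in place of 473 for P2 Nrl-/- against wild type (cone genes 13 higher and 0 lower, rod genes 1 higher), 308 in place of 485 for P2 CrxRip/+ against Nrl-/- and 261 in place of 446 for P2 Crx-/- against Nrl-/-. With only the 2 genotypes, P2 CrxRip/Rip gave 43 in place of 80 against CrxRip/+ and 133 in place of 234 against Crx-/-, and P21 CrxRip/Rip against CrxRip/+ gave 279 in place of 703. Leaving out 1 sample gave 72 to 220 for P2 Crx-/- against wild type, 78 to 187 for P2 CrxRip/+ against Crx-/-, 55 to 105 for P2 CrxRip/+ against wild type, 136 to 235 for P2 CrxRip/Rip against Crx-/- and 51 to 80 for P2 CrxRip/Rip against CrxRip/+, and the cone genes higher in P2 Crx-/- ranged from 0 to 1.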
